A study of Mus musculus with 58 samples.

Results

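The genes of bone morphogenetic protein (BMP) and transforming growth factor beta (TGF-beta) signalling were followed in the ribosome-bound mRNA of mouse brown, beige and white adipocytes. They were taken by symbol: every row whose symbol began with the names of the BMP, TGF-beta, activin, inhibin beta or growth differentiation factor ligands, their receptors, the Smads, Smurfs, latent TGF-beta binding proteins, follistatins, secreted BMP antagonists, Bambi or an Id gene was kept. This gave 44 genes among 11603 rows of the expression table. The rule used names only and no measured value. It also took in 3 genes that are no ligand, receptor, Smad, antagonist or target of the pathway, which are described after the others.

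The series compared C57BL/6J mice of 2 lines, Ucp1-NuTRAP and Adipoq-NuTRAP. NuTRAP mice carry GFP-tagged ribosomes wherever Cre recombinase is active, here driven by the promoter of Ucp1 (thermogenic adipocytes) or of Adipoq (all adipocytes), and pull-down with an antibody against GFP recovers the mRNA on those ribosomes. Which line gave which library is not stated in the labels, nor is the age or sex of the mice. Warm brown libraries (n = 5) are of the interscapular brown depot after 1 week at 4 °C followed by 4 weeks at 30 °C, and cold brown libraries (n = 5) of the same depot after the week at 4 °C. Warm beige (n = 3) and cold beige (n = 4) libraries are of the inguinal depot under the same 2 regimes. Warm white libraries (n = 5) are also inguinal, but those animals had lived at 30 °C since birth. In brown and beige adipocytes the regime called warming ran 4 weeks longer than the cold one. Effects of temperature and of elapsed time therefore cannot be told apart. The labels call each library a biological replicate without saying which animals gave more than 1 tissue, so p-values measure the spread between these 22 libraries. Another 36 samples, of histone marks, were not analysed here.

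In this pathway a secreted ligand binds type II and type I receptor kinases, which phosphorylate Smad1 and Smad5 (BMPs) or Smad2 and Smad3 (TGF-beta and activins). These join Smad4 and act in the nucleus on targets such as the Id genes. In fat, BMP ligands are known to take part in the making of brown and beige adipocytes and in thermogenesis, and TGF-beta and activin signals are known to restrain browning in mice.

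Levels are the deposited log2 CPM values (CPM, read counts scaled to each library's total), and differences are in log2 units with the standard error (SE) of limma, fitted to all 22 libraries. A gene is called higher or lower where its two-sided p, adjusted by Benjamini and Hochberg over all 11603 rows, is below 0.05. Depth per library is unknown, and values at or below -5 log2 CPM are treated as a floor. CPM values are not divided by gene length, so levels are compared within a gene only. Groups are said not to overlap where all libraries of 1 group lie above all of the other. Warm and cold libraries did not overlap for 63% of all rows in brown and 66.4% in beige adipocytes (27 and 29 of the 44 genes). Warm beige and warm white libraries did not for 29% of rows (19 genes). Beige and brown libraries did not for 54.2% of rows in the cold and 70% after warming (26 and 31 genes). All rows, and so all 44 genes, reached 1 CPM in at least 3 libraries; 32 of the 44 did so in every library.

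Thermogenic and depot markers were read first. Ucp1 averaged 8.84 ± 0.32 log2 CPM (SD) in warm brown, 12.15 ± 0.28 in cold brown, 1.03 ± 0.59 in warm beige, 11.34 ± 0.25 in cold beige and -2.82 ± 1.72 in warm white libraries. Zic1, a brown depot marker, was at the floor in all inguinal libraries, and Hoxc9 and Hoxc10, inguinal markers, were at the floor in all brown ones. Lhx8, also listed as a brown depot marker, did not follow the depot, at 3.88 ± 0.17 log2 CPM in warm brown, 2.55 ± 0.38 in cold brown, 3.00 ± 0.10 in warm beige, 1.00 ± 0.17 in cold beige and 3.59 ± 0.27 in warm white libraries. Markers of cells outside the adipocyte lineage also differed. The 12 endothelial markers summed to 145 to 256 CPM in warm brown, 61.3 to 214 in cold brown, 633 to 981 in warm beige, 195 to 411 in cold beige and 62.9 to 96.7 in warm white libraries. The 11 fibroblast and preadipocyte markers summed to 131 to 254, 35.3 to 90.7, 2650 to 5290, 726 to 1100 and 3560 to 4410 CPM in the same 5 groups. Cold brown 1 and 5 stood apart, with endothelial sums of 214 and 204 CPM against 61.3 to 71.3 in the other 3, and smooth muscle and pericyte sums of 263 and 285 CPM against 31.6 to 41.9. Values without these 2 libraries were added after the data had been seen. In such bulk libraries fewer cells of a type and less RNA per cell cannot be told apart.

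Warming raised more of the 44 genes than it lowered in brown adipocytes. Of the 44, 27 were called higher and 6 lower in warm than in cold brown libraries, beside 41.2% of all rows called higher, 30.1% called lower and 71.3% called in either direction. The share called, 75%, was close to that of all rows, whereas the share called higher was 61.4%. Their median difference was 0.78, against 0.13 over all rows. Endothelial markers called higher in the same comparison numbered 4 of 12, fibroblast markers 8 of 11 and smooth muscle markers 2 of 7, with none of them called lower, and 1 of 7 skeletal muscle markers was called lower; their part in the result was not tested. The libraries fell into batches of 10 and 12, a division read from the values and not named by the labels. All 33 calls had the same sign within both batches. Each batch is a part of the libraries that gave the calls, so a shared sign, here and below, is no separate support.

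Beige adipocytes showed a like count. On warming 25 of the 44 genes were called higher and 6 lower, beside 36% of all rows called higher, 36.9% called lower and 72.9% called in either direction. Their median difference was 0.65, against 0.03 over all rows. In the same comparison 10 of 12 endothelial, 7 of 11 fibroblast, 5 of 7 smooth muscle, 7 of 7 skeletal muscle and 3 of 6 macrophage markers were called higher and none lower. The skeletal muscle markers had a median difference of 5.62 and summed to 18.2 to 204 CPM in warm beige, against 1.95 to 17.5 CPM in cold beige libraries. The part of these cells in the result was not tested. Of the 31 genes called in all libraries, only Bmpr1a took the opposite sign within a batch, at -0.06 in batch 1 (1 warm and 2 cold libraries).

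Both warmings raised 17 of the genes (38.6%, against 26.8% of all rows) and lowered 2 (4.55%, against 23.4% of all rows). The 17 were the ligand genes Bmp3, Bmp6 and Inhbb, the receptor genes Acvr1, Acvr1b, Acvr2a, Acvr2b, Bmpr1a and Tgfbr3, Smad1, Smad2, Smad3, Smad5 and the inhibitory Smad7, Bambi, Fst and Id3. The 2 lowered in both were Bmp8b and Tgfbrap1. Another 5 moved in opposite directions. Bmp2k, Bmpr2, Id2 and Tgfb1 were called higher in brown and lower in beige libraries, beside 458 of the 11603 rows. Ltbp3 was called lower in brown and higher in beige ones, beside 196 of the rows. The beige calls of Bmp2k and Tgfb1 and both calls of Ltbp3 were lost under some alternatives.

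The 2 warming effects were compared by their difference (beige effect minus brown effect). It was called for 22 of the 44 genes, 9 higher and 13 lower, beside 47.2% of all rows called, 14.8% higher and 32.4% lower. The median difference was -0.02, against -0.17 over all rows. The split depended on scaling: the higher calls made up 40.9% of the 22, but 65.4% of the calls after quantile normalization, 51.9% with 1 CPM added and 50% under median-of-ratios scaling. Of the 22 calls, only Tgfbr1 had the opposite sign within a batch (-0.09 in batch 1).

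**Figure D1:**
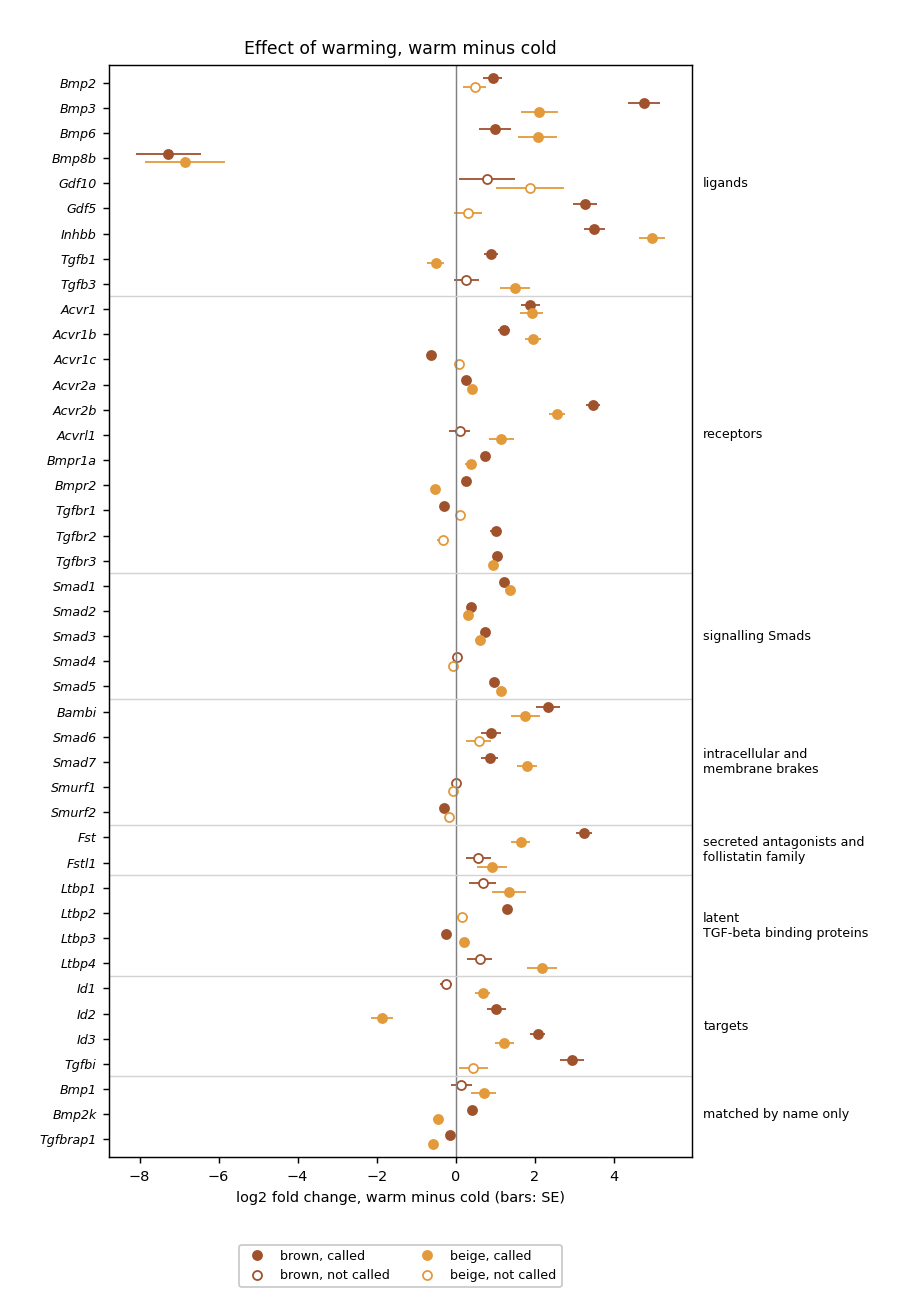
Effect of warming on each gene described here, as the log2 difference of warm minus cold libraries with its SE, for brown (n = 5 and 5) and beige (n = 3 and 4) adipocytes, grouped by role; filled points passed an adjusted p of 0.05. Most points lie right of 0, and Bmp8b lies far to the left at -7.27 in brown and -6.85 in beige libraries.

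**Figure D2:**
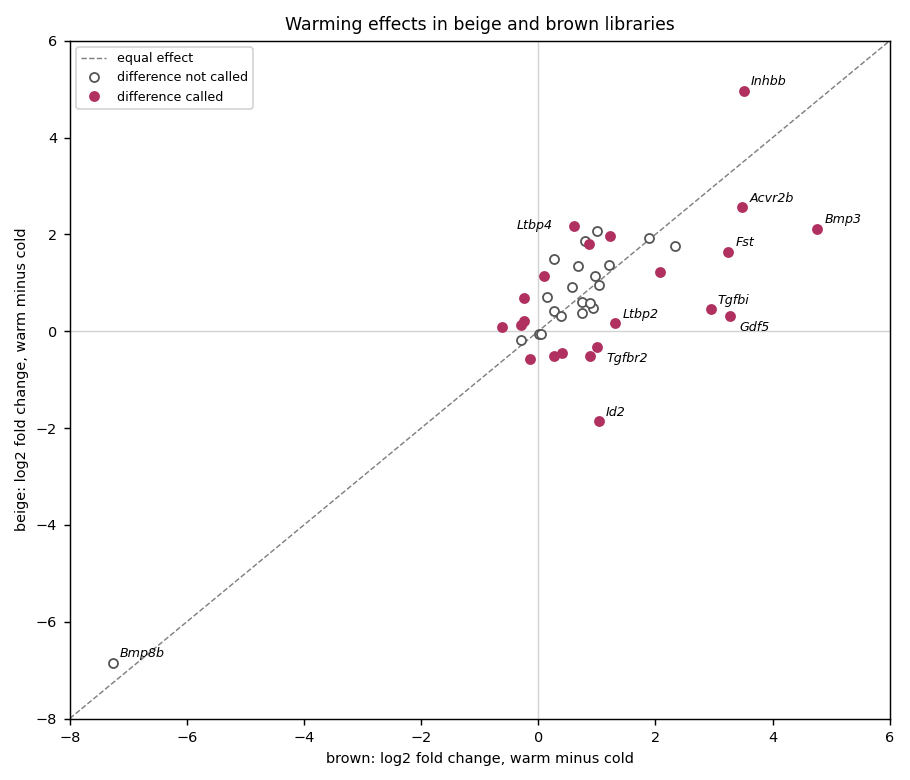
Effect of warming in beige (vertical) against brown libraries (horizontal), both in log2 units, 1 point per gene; filled points have a difference of effects that passed an adjusted p of 0.05, and the dashed line marks equal effects. Inhbb and Ltbp4 lie above the line at a difference of 1.46 and 1.57, and Gdf5, Id2 and Bmp3 lie below it at -2.96, -2.89 and -2.64.

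Among the 9 ligand genes, Bmp8b fell and Inhbb rose steeply in both fat types. Bmp8b (uc008uot.2; chromosome 4, 123104308 to 123126094), a secreted factor of thermogenic fat, stood at -0.88, -1.33, -1.46, -0.40 and -1.33 log2 CPM in warm brown libraries, against 5.74, 6.39, 6.30, 6.35 and 6.16 in cold brown ones. The groups were wholly apart, with a difference of -7.27 ± 0.83 (adjusted p = 6.81e-08), or 154-fold lower. Warm brown libraries averaged only 0.49 CPM, so the size is uncertain. Outside the fits within batches, the alternatives gave -7.44 to -5.64. In warm beige libraries Bmp8b stood at -2.12, -6.03 and 0.01 log2 CPM, against 3.30, 4.47, 4.37 and 4.40 in cold beige ones, again without overlap. That difference was -6.85 ± 1.01 (adjusted p = 2.48e-06). Warm beige 2 lay at the floor, so the size is uncertain: with 1 CPM added it was -3.78, and within batch 1 -3.84 (adjusted p = 0.0669). The effects of the 2 fat types differed by 0.42 ± 1.31 (adjusted p = 0.817), but by 1.86 (adjusted p = 3.29e-05) with 1 CPM added. Whether reads of Bmp8b and its close paralogue Bmp8a were kept apart is not known, since the counting rules are not given in the sources used.

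Inhbb (uc007cir.1; chromosome 1, 119415463 to 119422248), which encodes the beta B subunit of activin B, had the opposite pattern. Its level was 3.08, 2.91, 3.97, 2.95 and 2.91 log2 CPM in warm brown libraries, against -0.05, -0.79, -0.08, -0.63 and -0.19 in cold brown ones. The warm beige level was 8.53, 7.24 and 7.16 log2 CPM, against 3.34, 1.72, 2.81 and 2.83 in cold beige ones. Neither pair of groups overlapped. It rose by 3.51 ± 0.27 in brown (adjusted p = 1.48e-10) and by 4.97 ± 0.33 in beige libraries (adjusted p = 8.16e-12), and the beige rise was larger by 1.46 ± 0.43 (adjusted p = 0.00785). That difference was 2.27 with 1 CPM added, 2.88 after quantile normalization and 0.66 within batch 1 (adjusted p = 0.328).

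The promoters of these 2 ligand genes are shown because both genes had large effects of opposite direction in both fat types. They are the 250 bases before the start of each RefSeq promoter entry (GRCm38.p6), 5′ to 3′ on the gene's strand, at chr4:123104911-123105160 (plus strand) for Bmp8b and chr1:119422249-119422498 (minus strand) for Inhbb. The Bmp8b entry starts inside the span given for the gene above. Capitals mark CAGAC or its reverse complement GTCTG, the core of the Smad-binding element, and GGCGCC, a GC-rich Smad motif that reads the same on both strands.
Bmp8b: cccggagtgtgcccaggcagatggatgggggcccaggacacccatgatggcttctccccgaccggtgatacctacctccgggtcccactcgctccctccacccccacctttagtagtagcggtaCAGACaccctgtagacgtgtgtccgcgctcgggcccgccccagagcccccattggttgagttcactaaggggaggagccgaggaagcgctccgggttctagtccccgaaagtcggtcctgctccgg
Inhbb: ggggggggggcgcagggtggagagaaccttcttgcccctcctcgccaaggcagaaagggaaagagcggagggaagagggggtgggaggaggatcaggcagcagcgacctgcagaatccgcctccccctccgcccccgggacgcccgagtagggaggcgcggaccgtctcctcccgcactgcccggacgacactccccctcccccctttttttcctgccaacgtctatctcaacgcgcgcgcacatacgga
The Bmp8b window held 1 CAGAC and no GGCGCC, and the Inhbb window held neither. Promoters were matched for 30 of the 44 genes: 13 of the 30 held CAGAC or GTCTG, beside 42.1% of all 27025 promoter windows, and 7 held GGCGCC, beside 9.54% of all windows.

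Bmp3 (uc008ygh.3; chromosome 5, 98854415 to 98884053), a BMP known in bone to oppose other BMPs, rose in both fat types. It stood at 3.14, 3.67, 3.42, 2.80 and 2.79 log2 CPM in warm brown libraries, against -2.61, -0.83, -0.60, -2.77 and -1.18 in cold brown ones. Warm beige libraries had 4.78, 3.38 and 3.39, against 1.16, 1.12, 2.12 and 2.53 in cold beige ones. Neither pair overlapped, and the rise was 4.76 ± 0.40 in brown (adjusted p = 4.82e-10) and 2.12 ± 0.48 in beige libraries (adjusted p = 0.000478). With 1 CPM added the brown rise was 2.86, and within batch 1 the beige one was 1.55 (adjusted p = 0.132). The beige effect was smaller by 2.64 ± 0.63 (difference -2.64, adjusted p = 0.00139), though it was -1.15 after quantile normalization (adjusted p = 0.154), -1.04 with 1 CPM added and -2.06 within batch 2 (adjusted p = 0.0601).

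Gdf5 (uc012chg.1; chromosome 2, 155941023 to 155945367), a BMP-family ligand best known from joint formation, stood higher in warm brown libraries than in any other library. Its levels there were 6.06, 6.15, 5.96, 5.46 and 5.38 log2 CPM, against 2.63, 2.83, 1.77, 2.74 and 2.65 in cold brown ones. The warm beige levels were 3.09, 2.91 and 1.09 log2 CPM, against 1.94, 1.90, 2.00 and 2.36 in cold beige ones, and in warm white libraries 1.98 to 3.19. The brown groups lay apart by 3.28 ± 0.30 (adjusted p = 1.81e-09), while the beige groups overlapped at 0.31 ± 0.36 (adjusted p = 0.442), and the effects differed by -2.96 ± 0.47 (adjusted p = 1.91e-05). The beige difference rested on warm beige 3: without it the value was 0.95 (adjusted p = 0.00736), and within batch 1, where it was the only warm beige library, -1.06 (adjusted p = 0.0153).

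Of the other ligand genes, Bmp6, known for its part in iron control and in brown adipocyte differentiation, rose by 2.07 ± 0.50 in beige (adjusted p = 0.000748) and by 1.00 ± 0.41 in brown libraries (adjusted p = 0.0333). The brown call was kept under 14 of 21 alternatives, and was lost without any 1 of cold brown 2, 3 and 4 or warm brown 3, 4 and 5 (adjusted p = 0.0546 to 0.0978) and after quantile normalization (0.27, adjusted p = 0.522). Without cold brown 1 and 5 the rise was 1.75. In cold brown 1 and 5 the gene stood at 2.24 and 2.22 log2 CPM, against 0.32 to 0.38 in the other 3. Bmp2, an inducer of bone and of adipocyte commitment, rose by 0.94 ± 0.24 in brown libraries (adjusted p = 0.00144), but by 0.06 after quantile normalization (adjusted p = 0.84), and was at 0.48 ± 0.29 in beige ones (adjusted p = 0.144). Gdf10, also called BMP3b, passed in neither, at 0.80 ± 0.71 in brown (adjusted p = 0.318) and 1.87 ± 0.86 in beige libraries (adjusted p = 0.0558). Without cold brown 1 and 5 the brown value was 1.86 (adjusted p = 0.0276), and the beige value passed with 1 CPM added (1.39, adjusted p = 0.000205) and after quantile normalization (2.32, adjusted p = 0.0193). Gdf10 stood low in brown libraries, averaging -2.02 log2 CPM in warm and -2.82 in cold ones. Cold brown 4, at -5.58, lay at the floor, so the brown sizes are uncertain.

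The 2 measured TGF-beta ligand genes behaved unlike each other. Tgfb1, the main TGF-beta of most tissues, rose by 0.89 ± 0.17 in brown (adjusted p = 7.49e-05; 0.39 and adjusted p = 0.0295 after quantile normalization) and fell by 0.51 ± 0.21 in beige libraries (adjusted p = 0.0301). The effects differed by -1.40 ± 0.27 (adjusted p = 0.000165). The beige call was kept under 11 of 18 alternatives, and was lost without any 1 of cold beige 2 and 4 or warm beige 1 and 2 (adjusted p = 0.0522 to 0.114). It was also lost under median-of-ratios scaling (-0.44, adjusted p = 0.0611), without the 20 most abundant genes in the totals (-0.29, adjusted p = 0.234) and with the replicate block (-0.47, adjusted p = 0.0661), and was -0.85 after quantile normalization. Tgfb3 rose by 1.50 ± 0.39 in beige libraries (adjusted p = 0.00161) and was at 0.27 ± 0.32 in brown ones (adjusted p = 0.459), and the difference of effects, 1.22 ± 0.50, lay next to the threshold (adjusted p = 0.0507) and passed after quantile normalization (2.44, adjusted p = 6.27e-05) and with 1 CPM added (1.05, adjusted p = 0.0107).

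**Figure D3:**
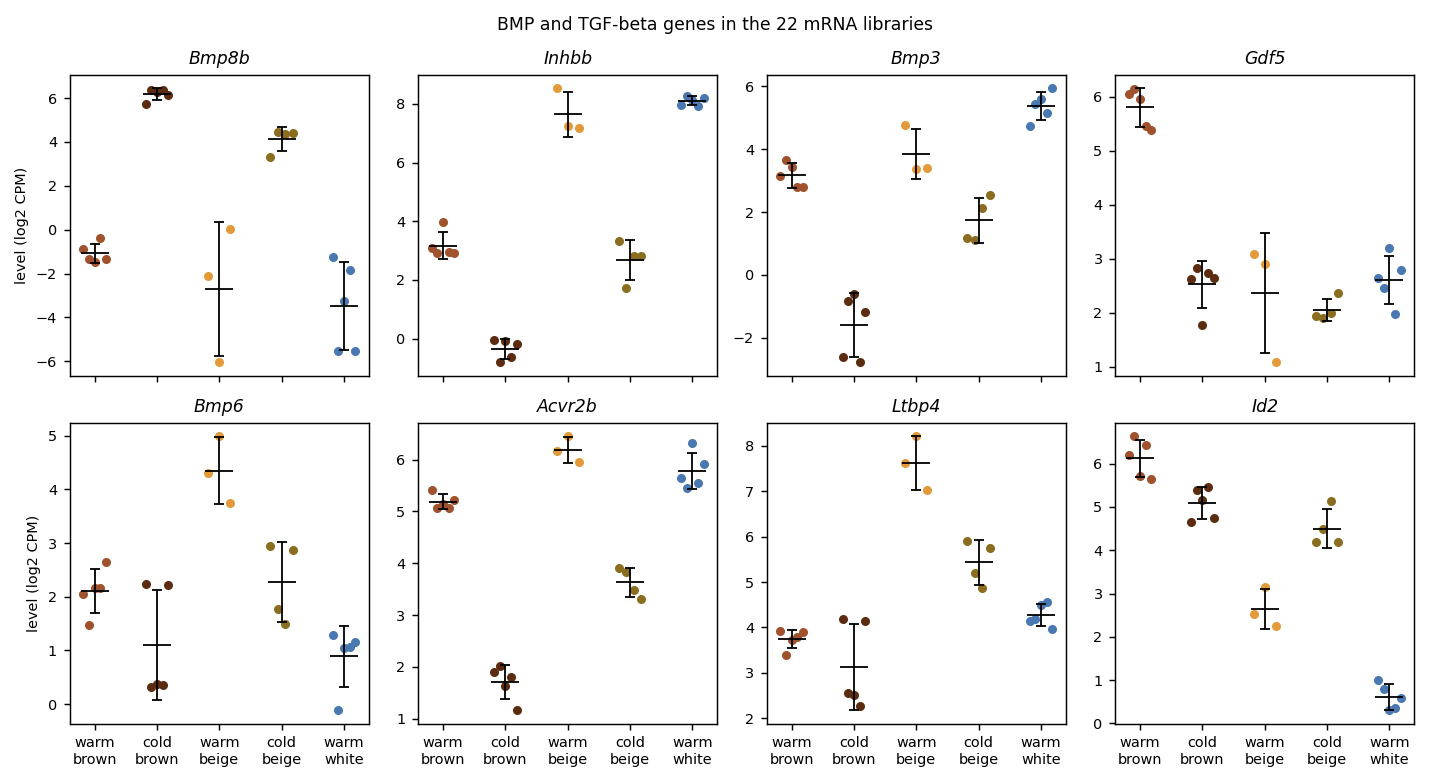
Levels of 8 genes in the 22 libraries, in log2 CPM, with 1 point per library and bars for the group mean and SD (n = 5 warm brown, 5 cold brown, 3 warm beige, 4 cold beige, 5 warm white). Bmp8b is high in both cold groups, Acvr2b in the warm groups and Inhbb in warm beige and warm white libraries. Gdf5 is high in warm brown libraries, and Ltbp4 in warm beige libraries at 7.02 to 8.21 log2 CPM.

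Of the 11 receptor genes, 8 were called higher and 2 lower in brown, and 7 higher and 1 lower in beige libraries. In beige libraries the share called in either direction, 72.7%, lay near the 72.9% of all rows. These and the counts by role below stand beside 41.2% of all rows called higher and 30.1% lower in brown, and 36% higher and 36.9% lower in beige libraries. Acvr2b (uc009sax.2; chromosome 9, 119401583 to 119442148), a type II receptor of activins, rose furthest in both. It stood at 5.42, 5.07, 5.15, 5.07 and 5.22 log2 CPM in warm brown libraries, against 1.91, 2.01, 1.63, 1.80 and 1.17 in cold brown ones. In warm beige libraries it stood at 6.17, 6.45 and 5.95, against 3.90, 3.84, 3.48 and 3.31 in cold beige ones. The groups were apart in both fat types, by 3.48 ± 0.17 in brown (adjusted p = 4.81e-14) and 2.56 ± 0.20 in beige libraries (adjusted p = 1.46e-10). The beige effect was smaller, at a difference of -0.92 ± 0.26 (adjusted p = 0.00596), which was -0.26 after quantile normalization (adjusted p = 0.415). Its relative Acvr2a rose by 0.27 ± 0.08 in brown and 0.41 ± 0.09 in beige libraries (0.63 without the 20 most abundant genes in the totals).

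The type I receptors Acvr1 (ALK2), which passes on BMP signals, and Acvr1b (ALK4), which passes on activin signals, rose in both fat types. Acvr1 rose by 1.89 ± 0.24 in brown (adjusted p = 2.59e-07) and by 1.92 ± 0.29 in beige libraries (adjusted p = 2.92e-06). Acvr1b rose by 1.22 ± 0.16 in brown and 1.96 ± 0.20 in beige libraries, and the difference, 0.75 ± 0.25 (adjusted p = 0.0196), was 0.40 without warm beige 2 (adjusted p = 0.115) and 1.14 after quantile normalization. Bmpr1a (ALK3), a type I BMP receptor, rose by 0.74 ± 0.11 in brown libraries (adjusted p = 5.26e-06). In beige ones its rise was 0.38 ± 0.14 (adjusted p = 0.0162), and without warm beige 1 or 2 it was 0.32 (adjusted p = 0.0751) and 0.23 (adjusted p = 0.156). It was 0.60 without warm beige 3, 0.61 after quantile normalization and 0.38 with the compared groups alone (adjusted p = 0.0526). Tgfbr3, the coreceptor betaglycan, rose by 1.04 ± 0.09 in brown and 0.95 ± 0.10 in beige libraries. The difference of its effects was -0.08 ± 0.13 (adjusted p = 0.629), with a 95% interval of -0.36 to 0.19.

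Acvr1c (uc008jsp.2; chromosome 2, 58267453 to 58357896), or ALK7, an adipocyte receptor that binds activin B and is known in mice to restrain fat breakdown, stood at 8.96, 8.78, 8.57, 8.59 and 8.53 log2 CPM in warm brown libraries, against 9.12, 9.35, 9.50, 9.27 and 9.29 in cold brown ones. The groups did not overlap and the fall was small, at -0.62 ± 0.10 (adjusted p = 1.65e-05; -0.37 within batch 1, adjusted p = 0.05). In beige libraries it was at 0.08 ± 0.13 (adjusted p = 0.583; 0.49 and adjusted p = 0.00124 after quantile normalization), and the effects differed by 0.70 ± 0.16 (adjusted p = 0.00129).

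Tgfbr1 (uc008sun.2; chromosome 4, 47353222 to 47414926), the type I receptor of TGF-beta, stood at 5.95, 5.77, 5.75, 5.68 and 5.61 log2 CPM in warm brown libraries, against 5.90, 6.03, 6.21, 6.10 and 5.96 in cold brown ones. These overlapped, with a difference of -0.29 ± 0.08 (adjusted p = 0.00351) that was -0.16 when the 20 most abundant genes were left out of the totals (adjusted p = 0.0495) and -0.10 within batch 1 (adjusted p = 0.531). Bmpr2 (uc007bdz.2; chromosome 1, 59764279 to 59878081), the type II BMP receptor, stood at 7.51, 7.46 and 7.39 log2 CPM in warm beige libraries, against 7.89, 7.80, 8.02 and 8.19 in cold beige ones. It fell there by 0.52 ± 0.09 without overlap (adjusted p = 2.07e-05; by 0.27 after quantile normalization and by 0.30 without the 20 most abundant genes in the totals) and rose by 0.26 ± 0.07 in brown libraries (adjusted p = 0.00341; 0.41 after quantile normalization). Tgfbr2, the type II receptor of TGF-beta, rose by 1.01 ± 0.13 in brown libraries (adjusted p = 2.24e-07) and was at -0.33 ± 0.15 in beige ones (adjusted p = 0.0548; -0.57 and adjusted p = 0.000702 without warm beige 1, and -0.38 and 0.0454 without cold beige 3).

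Acvrl1 (uc007xsn.2; chromosome 15, 101128522 to 101145336), or ALK1, is a receptor known mainly from endothelial cells. It stood at 4.22, 4.39 and 4.52 log2 CPM in warm beige libraries, against 3.07, 3.18, 3.10 and 3.57 in cold beige ones, a rise of 1.15 ± 0.32 without overlap (adjusted p = 0.00267). In warm brown libraries it stood at 1.76, 1.57, 2.04, 1.57 and 2.23 log2 CPM, against 2.77, 1.03, 1.41, 1.08 and 2.38 in cold brown ones. The brown groups overlapped, at 0.10 ± 0.26 (adjusted p = 0.744), and cold brown 1 and 5, the libraries with the high endothelial and smooth muscle sums, were the 2 highest of the 10. Without them the brown difference was 0.66 (adjusted p = 0.00447). The difference of effects, 1.05 ± 0.41 (adjusted p = 0.0407), was then 0.49 (adjusted p = 0.161), was 1.62 after quantile normalization, and kept its call under 14 of 28 alternatives, with single libraries of all 4 groups able to end it (adjusted p = 0.0564 to 0.0842). The part of endothelial mRNA in this result was not tested.

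Of the 5 signalling Smads, the same 4 were called higher in both fat types, and the difference of effects was called for none of the 5. Smad1 and Smad5, which carry BMP signals, rose by 1.21 ± 0.10 and 0.96 ± 0.08 in brown and by 1.37 ± 0.12 and 1.15 ± 0.10 in beige libraries. Smad1 levels were 4.97 to 5.12 log2 CPM in warm brown, against 3.60 to 3.93 in cold brown, and 5.60 to 6.06 in warm beige, against 4.35 to 4.78 in cold beige libraries. Smad2 and Smad3, which carry TGF-beta and activin signals, rose less, by 0.39 ± 0.08 and 0.75 ± 0.10 in brown and by 0.32 ± 0.09 and 0.61 ± 0.12 in beige libraries (Smad2 by 0.54 without the 20 most abundant genes in the totals). Warm and cold libraries did not overlap for any of these 4 genes in either fat type. The same held for 63% of all rows in brown and 66.4% in beige libraries. Smad4, the partner common to both branches, was at 0.04 ± 0.06 (adjusted p = 0.623; 0.16 and adjusted p = 0.0274 without the 20 most abundant genes in the totals) in brown and at -0.06 ± 0.08 (adjusted p = 0.521) in beige libraries. For Smad1 and Smad5 the difference of effects was 0.16 ± 0.16 and 0.19 ± 0.13, and both passed after quantile normalization, at 0.45 (adjusted p = 0.0119) and 0.43 (adjusted p = 0.00291). Without cold beige 1 that of Smad5 was 0.29 (adjusted p = 0.0403), and without warm beige 1 that of Smad3, at -0.14 ± 0.16 in all libraries, was -0.33 (adjusted p = 0.0496).

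Of the 5 genes that brake signalling inside the cell or at the membrane, 3 were called higher and 1 lower in brown, and 2 higher and none lower in beige libraries. Bambi, a decoy receptor without a kinase, rose by 2.33 ± 0.30 in brown (adjusted p = 5.12e-07; 1.31 after quantile normalization and 1.46 with 1 CPM added) and 1.76 ± 0.37 in beige libraries (adjusted p = 0.000194). Smad7, an inhibitory Smad of both branches, rose by 0.86 ± 0.21 in brown (adjusted p = 0.000801; 0.29 and adjusted p = 0.158 after quantile normalization) and by 1.80 ± 0.25 in beige libraries (adjusted p = 1.2e-06). The effects differed by 0.93 ± 0.33 (adjusted p = 0.0222), or 0.59 without cold brown 1 and 5 (adjusted p = 0.0977) and 1.69 after quantile normalization. Smad6, the inhibitory Smad of the BMP branch, rose by 0.89 ± 0.25 in brown (adjusted p = 0.00351) and was at 0.58 ± 0.31 in beige libraries (adjusted p = 0.0937; 0.79 and adjusted p = 0.0448 without warm beige 2).

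Smurf1 and Smurf2 encode ubiquitin ligases that mark Smads and receptors for breakdown. Smurf2 (uc007lzx.2; chromosome 11, 106820061 to 106920747) stood at 6.36, 6.43, 6.30, 6.37 and 6.53 log2 CPM in warm brown libraries, against 6.72, 6.63, 6.76, 6.71 and 6.60 in cold brown ones. It fell by 0.29 ± 0.07 without overlap (adjusted p = 0.00129), and at -0.16 the call was lost without the 20 most abundant genes in the totals (adjusted p = 0.084); within batch 1 it was -0.28 (adjusted p = 0.184). In beige libraries it was at -0.18 ± 0.09 (adjusted p = 0.063; -0.25 and adjusted p = 0.0131 without cold beige 1). Smurf1 was at 0.01 ± 0.08 in brown (adjusted p = 0.932) and -0.06 ± 0.09 in beige libraries (adjusted p = 0.544).

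Among the secreted antagonists, Fst, follistatin, which binds and blocks activins, rose by 3.24 ± 0.20 in brown (adjusted p = 3.73e-12; 2.07 with 1 CPM added and 2.09 after quantile normalization) and 1.64 ± 0.24 in beige libraries (adjusted p = 3.11e-06). Its levels were 2.21 to 2.73 log2 CPM in warm brown, against -1.31 to -0.31 in cold brown, and 3.27 to 4.10 in warm beige, against 1.64 to 2.18 in cold beige libraries. Neither pair overlapped, and the effects differed by -1.60 ± 0.32 (adjusted p = 0.000253), but by -0.27 after quantile normalization (adjusted p = 0.499). Fstl1, a follistatin-like glycoprotein of the matrix, rose by 0.91 ± 0.38 in beige libraries (adjusted p = 0.0381). That call was lost without any 1 of cold beige 1, 2 and 3 or warm beige 2 and 3 (adjusted p = 0.0539 to 0.16). In brown libraries it was at 0.57 ± 0.32 (adjusted p = 0.11), and at 1.15 (adjusted p = 0.0014) without cold brown 1 and 5, where it stood at 3.12 and 2.97 log2 CPM, against 1.39 to 1.91 in the other 3. Leaving out either one alone gave 0.81 (adjusted p = 0.0242) or 0.77 (adjusted p = 0.0372).

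The 4 latent TGF-beta binding proteins, which hold TGF-beta or build elastic fibres in the matrix, did not move together. Ltbp4 (uc009fvt.2; chromosome 7, 27305140 to 27339720) stood at 7.62, 8.21 and 7.02 log2 CPM in warm beige libraries, against 5.91, 5.20, 4.86 and 5.76 in cold beige ones. The groups did not overlap, and the rise was 2.18 ± 0.38 (adjusted p = 2.67e-05; 1.19 within batch 1, adjusted p = 0.0843). In warm brown libraries it stood at 3.91, 3.40, 3.72, 3.79 and 3.90, against 4.18, 2.56, 2.50, 2.26 and 4.15 in cold brown ones. The brown groups overlapped through cold brown 1 and 5, at 0.61 ± 0.32 (adjusted p = 0.0887), and without these 2 libraries the difference was 1.30 (adjusted p = 4.84e-05). Leaving out either one alone gave 0.88 (adjusted p = 0.0128) or 0.87 (adjusted p = 0.0146).

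The beige effect on Ltbp4 was larger by 1.57 ± 0.50 (adjusted p = 0.0128). It was larger by 0.88 without cold brown 1 and 5 (adjusted p = 0.0387), by 1.27 without warm beige 2 (adjusted p = 0.0562) and by 0.90 within batch 1 (adjusted p = 0.403). Ltbp1 rose by 1.35 ± 0.42 in beige libraries (adjusted p = 0.00621) and was at 0.68 ± 0.35 in brown ones (adjusted p = 0.0838; 0.96 and adjusted p = 0.0128 without cold brown 1). Ltbp2 rose by 1.31 ± 0.11 in brown libraries (adjusted p = 4.28e-10) and was at 0.17 ± 0.13 in beige ones (adjusted p = 0.254; 0.38 and adjusted p = 0.00694 after quantile normalization), a difference of effects of -1.14 ± 0.17 (adjusted p = 9.94e-06). Ltbp3 fell by 0.24 ± 0.06 in brown libraries (adjusted p = 0.00193; -0.07 and adjusted p = 0.337 after quantile normalization, -0.11 and 0.111 without the 20 most abundant genes in the totals). It rose by 0.22 ± 0.08 in beige ones (adjusted p = 0.0126; 0.59 after quantile normalization, 0.14 and adjusted p = 0.119 without warm beige 2), and the effects differed by 0.46 ± 0.10 (adjusted p = 0.000568).

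The target genes split. Id1, Id2 and Id3 encode helix-loop-helix proteins that block the DNA binding of other factors and are known to respond to BMP signals. Id2 (uc007nfe.2; chromosome 12, 25093799 to 25096092) stood at 6.19, 6.63, 5.71, 6.42 and 5.64 log2 CPM in warm brown libraries, against 4.65, 5.39, 5.17, 5.47 and 4.74 in cold brown ones, a rise of 1.03 ± 0.23 without overlap (adjusted p = 0.000358). In warm beige libraries it stood at 2.53, 3.14 and 2.24, against 4.19, 4.48, 5.13 and 4.18 in cold beige ones, a fall of 1.86 ± 0.28 without overlap (adjusted p = 2.91e-06). The effects differed by -2.89 ± 0.36 (adjusted p = 7.88e-07), and by -3.33 within batch 1 and -2.77 within batch 2.

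Id3, by contrast, rose in both, by 2.07 ± 0.20 in brown (adjusted p = 4.77e-09) and 1.23 ± 0.24 in beige libraries (adjusted p = 9.95e-05). The smaller beige effect, a difference of -0.84 ± 0.31 (adjusted p = 0.0323), kept its call under 16 of 28 alternatives. It was lost without any 1 of cold beige 1 and 3, warm beige 2 and 3, cold brown 1 and 3 or warm brown 2 and 3 (adjusted p = 0.0537 to 0.0988). It was also lost after quantile normalization (-0.58, adjusted p = 0.125), under median-of-ratios scaling (-0.70, adjusted p = 0.0691) and without the 20 most abundant genes in the totals (-0.75, adjusted p = 0.0571). Id1 rose by 0.69 ± 0.19 in beige libraries (adjusted p = 0.00219) and was at -0.25 ± 0.15 in brown ones (adjusted p = 0.149; -0.37 and adjusted p = 0.0344 without warm brown 3), and the effects differed by 0.95 ± 0.24 (adjusted p = 0.00276). Tgfbi, a matrix protein gene induced by TGF-beta, rose by 2.94 ± 0.31 in brown libraries (adjusted p = 1.68e-08; 1.93 after quantile normalization) and was at 0.45 ± 0.37 in beige ones (adjusted p = 0.277), with effects differing by -2.48 ± 0.48 (adjusted p = 0.000202; -1.62 after quantile normalization).

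The promoters of Id2 and Id3 are shown because these related genes took opposite directions in beige libraries. The windows are again the 250 bases before the RefSeq start (GRCm38.p6), at chr12:25096093-25096342 (minus strand) for Id2 and chr4:136143572-136143821 (plus strand) for Id3, with the same motifs in capitals.
Id2: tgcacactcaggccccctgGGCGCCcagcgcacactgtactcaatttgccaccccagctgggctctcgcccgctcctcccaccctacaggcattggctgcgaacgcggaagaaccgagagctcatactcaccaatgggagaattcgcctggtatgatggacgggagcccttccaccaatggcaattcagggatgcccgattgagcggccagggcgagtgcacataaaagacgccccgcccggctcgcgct
Id3: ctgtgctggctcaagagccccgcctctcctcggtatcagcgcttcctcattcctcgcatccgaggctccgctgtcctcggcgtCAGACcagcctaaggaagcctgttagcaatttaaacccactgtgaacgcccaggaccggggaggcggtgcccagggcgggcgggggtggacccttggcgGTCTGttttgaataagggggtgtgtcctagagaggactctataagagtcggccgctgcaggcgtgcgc
The Id2 window held 1 GGCGCC and no CAGAC or GTCTG, and the Id3 window held 1 CAGAC, 1 GTCTG and no GGCGCC. A match describes the letters of the window and does not show that a Smad binds there.

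The 3 genes outside these roles are Bmp1, a metalloprotease of the matrix that also cleaves chordin, Bmp2k, a kinase induced by Bmp2, and Tgfbrap1, a receptor-associated protein of vesicle sorting. Tgfbrap1 (uc007avf.1; chromosome 1, 43047200 to 43098712) stood at 5.95, 5.76 and 5.69 log2 CPM in warm beige libraries, against 6.36, 6.37, 6.40 and 6.41 in cold beige ones. It fell by 0.58 ± 0.07 without overlap (adjusted p = 2.64e-07; by 0.36 without the 20 most abundant genes in the totals). In brown libraries it fell by 0.14 ± 0.06 (adjusted p = 0.0446), a call kept under 10 of 21 alternatives (-0.01 and adjusted p = 0.864 without the 20 most abundant genes in the totals). Bmp2k fell by 0.46 ± 0.12 in beige libraries (adjusted p = 0.00209; -0.24 and adjusted p = 0.0834 without the 20 most abundant genes in the totals) and rose by 0.41 ± 0.10 in brown ones (adjusted p = 0.00113). Bmp1 rose by 0.71 ± 0.32 in beige libraries (adjusted p = 0.0478), a call kept under 8 of 18 alternatives (1.29 without warm beige 1, and 0.34 with adjusted p = 0.36 without warm beige 3), and was at 0.14 ± 0.26 in brown ones (adjusted p = 0.649).

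The comparison of warm beige with warm white libraries asks how far inguinal adipocytes that had been cold-exposed and rewarmed differed from ones that had stayed at 30 °C. The line of each library is not stated, so the cells captured and the housing cannot be told apart. Of the 44 genes, 12 were called higher and 10 lower, beside 17% of all rows called higher, 22.4% lower and 39.4% in either direction. The median was -0.10, against -0.04 over all rows. All 12 endothelial markers and 5 of 11 fibroblast markers were called higher here (1 fibroblast marker lower), with 6 of 7 smooth muscle, 2 of 7 skeletal muscle and 2 of 6 macrophage markers also higher, and their part in the result was not tested. All 22 calls had the same sign within both batches, which are again parts of the same libraries.

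Bmp6 (uc007qdp.2; chromosome 13, 38345716 to 38500314) stood at 4.30, 4.99 and 3.75 log2 CPM in warm beige libraries, against 1.29, -0.11, 1.05, 1.07 and 1.15 in warm white ones. The groups were far apart, by 3.46 ± 0.47 (adjusted p = 5.77e-06). Ltbp4, at 7.02 to 8.21 in warm beige, stood at 4.15, 4.18, 4.50, 4.56 and 3.97 in warm white libraries, 3.34 ± 0.37 higher in warm beige (adjusted p = 3.06e-07). Gdf10 (uc007tab.1; chromosome 14, 33923587 to 33936514) stood at 2.14, 3.43 and 2.34 in warm beige libraries, against 0.42, -0.07, -0.39, 1.10 and -2.39 in warm white ones. It was higher by 2.90 ± 0.82 without overlap (adjusted p = 0.00753), by 1.88 with 1 CPM added, and by 3.02 and 2.43 within the batches (adjusted p = 0.151 and 0.117).

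Id2 was also higher in warm beige than in warm white libraries, where it stood at 1.00, 0.80, 0.31, 0.35 and 0.59 log2 CPM, by 2.03 ± 0.26 (adjusted p = 3.02e-06). Others called higher by at least 2-fold were Ltbp1 (1.79 ± 0.40), Fstl1 (1.56 ± 0.37), Ltbp2 (1.26 ± 0.13), Tgfbr2 (1.19 ± 0.14) and Fst (1.05 ± 0.23). The receptor gene Tgfbr2 stood at 7.88, 7.21 and 7.08 in warm beige libraries, against 6.12, 6.53, 6.00, 6.38 and 5.98 in warm white ones, without overlap.

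Among the lower calls, Bmp3, at 3.38 to 4.78 in warm beige, stood at 4.75, 5.43, 5.59, 5.16 and 5.94 in warm white libraries. The groups overlapped, at -1.52 ± 0.46 (adjusted p = 0.0116), and the call was lost without warm beige 2 (-1.29, adjusted p = 0.0678) or 3 (-1.29, adjusted p = 0.0624) and within the batches (-1.98 and -1.29, adjusted p = 0.104 and 0.137). Bmp2 (uc008mnr.2; chromosome 2, 133552159 to 133562896) stood at 1.57, 1.96 and 1.99 in warm beige libraries, against 2.89, 2.95, 2.95, 2.77 and 3.17 in warm white ones, without overlap. It was lower by 1.11 ± 0.28 (difference -1.11, adjusted p = 0.003; -1.73 after quantile normalization, and adjusted p = 0.172 and 0.0501 within the batches).

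Several genes with large warming effects did not pass between warm beige and warm white libraries. Inhbb stood at 7.96, 8.28, 8.14, 7.92 and 8.21 log2 CPM in warm white libraries, a difference of -0.46 ± 0.32 (adjusted p = 0.264) that was -0.90 without warm beige 1 (adjusted p = 0.0292). Acvr2b was at 0.41 ± 0.19 (adjusted p = 0.0972; 0.55 and adjusted p = 0.0213 without warm white 3), and Smad1 at -0.05 ± 0.12 (adjusted p = 0.79). Bmp8b stood at -1.24, -5.54, -3.24, -1.86 and -5.54 log2 CPM in warm white libraries, of which 2 were at the floor, and its difference of 0.77 ± 0.96 (adjusted p = 0.554) was 2.43 without warm beige 2 (adjusted p = 0.0318).

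Beige and brown adipocytes were also compared at each temperature. In the cold, 25 of the 44 genes were called higher and 5 lower in beige than in brown libraries, beside 34.7% of all rows called higher, 27.2% lower and 61.9% in either direction, with a median of 0.53, against 0.05 over all rows. After warming, 24 were called higher and 9 lower, beside 35.3%, 40.1% and 75.5% of all rows, with a median of 0.57, against -0.05. Of the marker lists, 10 of 12 endothelial and 11 of 11 fibroblast markers were called higher in beige libraries in both comparisons. Smooth muscle markers called higher numbered 2 of 7 in the cold and 5 of 7 after warming, skeletal muscle markers 2 of 7 and 7 of 7, and macrophage markers 6 of 6 and 5 of 6; the part of these cells in the results was not tested. Acvr1 in the warm, at -0.01 in batch 1, was the only call of these comparisons with the opposite sign within a batch. These comparisons share all their libraries with the warming comparisons, and the second shares the warm beige libraries with the comparison with white.

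Gdf10 was higher in beige libraries at both temperatures. In cold beige libraries it stood at -0.08, 0.36, 1.39 and 1.41 log2 CPM, against -1.11, -3.04, -3.01, -5.58 and -1.38 in cold brown ones, of which 1 was at the floor. In the warm, the brown libraries stood at -2.57, -1.22, -1.49, -2.09 and -2.73, below all warm beige values. The difference was 3.59 ± 0.76 in the cold (adjusted p = 0.0003; 1.66 and adjusted p = 0.0642 after quantile normalization, 1.19 with 1 CPM added, and adjusted p = 0.0897 within batch 1) and 4.66 ± 0.82 after warming (adjusted p = 2.5e-05; 2.53 with 1 CPM added).

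Ltbp1 (uc008dom.2; chromosome 17, 75005480 to 75392512) stood at 2.78, 2.60, 2.85 and 2.92 log2 CPM in cold beige libraries, against 0.47, -1.68, -1.19, -0.38 and -0.46 in cold brown ones. In warm beige libraries it stood at 3.96, 4.44 and 4.02, against 0.63, 0.06, -0.42, 0.04 and -0.16 in warm brown ones. Beige libraries lay wholly above brown ones, by 3.44 ± 0.37 in the cold (adjusted p = 6.18e-08; 2.23 with 1 CPM added) and 4.11 ± 0.40 after warming (adjusted p = 4.48e-09). Inhbb was higher in warm beige than in warm brown libraries by 4.48 ± 0.32 (adjusted p = 2.35e-11) and in cold beige than in cold brown ones by 3.02 ± 0.29 (adjusted p = 1.35e-08; 1.87 after quantile normalization).

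Fewer genes were lower in beige. Bmp8b was lower in cold beige than in cold brown libraries by 2.05 ± 0.88 (difference -2.05, adjusted p = 0.0483) without overlap. The SE draws on the spread in all groups. The SD of Bmp8b was 0.27 in cold brown, 0.56 in cold beige and 0.44 in warm brown, against 3.06 in warm beige and 2.01 in warm white libraries. Outside the fits within batches, 6 of 20 alternatives kept the call, with adjusted p as low as 4.26e-08. The call was lost without any 1 of the 9 libraries (adjusted p = 0.055 to 0.126) and within both batches (-2.21 and -1.85, adjusted p = 0.201 and 0.0836). Id2 stood lower in cold beige libraries by 0.59 ± 0.24 with overlap (adjusted p = 0.0396), and this call was lost without any 1 of cold beige 1, 2 and 4 or cold brown 2, 3 and 4 (adjusted p = 0.068 to 0.121) and within batch 2 (-0.32, adjusted p = 0.367). After warming, Id2 was lower in beige than in brown libraries by 3.48 ± 0.26 (adjusted p = 7.38e-11) and Gdf5 by 3.44 ± 0.34 (adjusted p = 7.42e-09), both without overlap.

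Smurf2 stood at 6.00, 6.16, 6.15 and 6.48 log2 CPM in cold beige libraries, all below the 6.60 to 6.76 of cold brown ones, at -0.49 ± 0.08 (adjusted p = 1.18e-05; adjusted p = 0.0634 within batch 1). Tgfbr2 (uc009rys.2; chromosome 9, 116087695 to 116175363) stood at 7.88, 7.21 and 7.08 in warm beige libraries, against 9.14, 9.21, 9.16, 9.17 and 9.28 in warm brown ones. It was lower there by 1.80 ± 0.14 without overlap (difference -1.80, adjusted p = 1.98e-10).

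**Figure D4:**
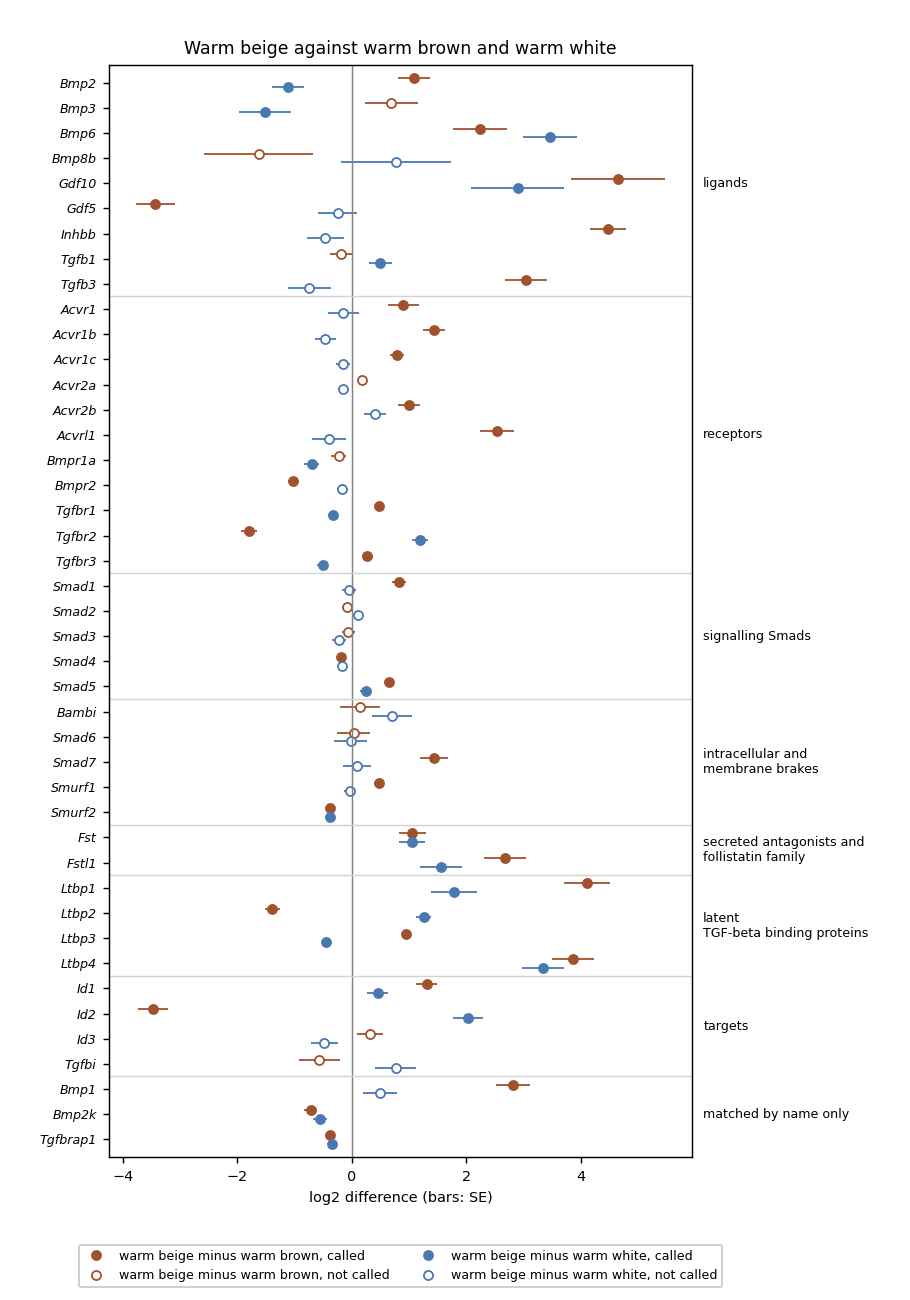
Log2 difference, with its SE, of warm beige minus warm brown and of warm beige minus warm white libraries for each gene described here (n = 3 warm beige, 5 warm brown, 5 warm white); filled points passed an adjusted p of 0.05. The 2 comparisons share the warm beige libraries. Id2 and Tgfbr2 lie below 0 against brown (-3.48 and -1.80) and above 0 against white (2.03 and 1.19).

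A list of 77 further genes of the pathway, chosen by role and not matched by the naming rule, had 53 measured members. On warming, 20 were called higher and 14 lower in brown, and 21 higher and 13 lower in beige libraries, with medians of 0.14 and 0.17, beside 0.13 and 0.03 over all rows. In brown libraries these are 37.7% higher and 26.4% lower, beside 41.2% and 30.1% of all rows, and in beige libraries 39.6% and 24.5%, beside 36% and 36.9%. The 23 modulators outside the cell and at the membrane counted 12 higher (52.2%) and 1 lower (4.35%) in brown, and 15 higher (65.2%) and 2 lower (8.7%) in beige libraries. The 23 adaptors and negative regulators inside the cell counted 5 higher (21.7%) and 11 lower (47.8%) in brown, and 4 higher (17.4%) and 10 lower (43.5%) in beige libraries, beside the same shares of all rows.

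Vasn, a membrane protein that traps TGF-beta, rose in both, by 3.75 ± 0.32 in brown (adjusted p = 4.91e-10) and 2.60 ± 0.38 in beige libraries (adjusted p = 2.37e-06). Its level was 4.75 ± 0.62 log2 CPM (SD) in warm brown, against 1.00 ± 0.58 in cold brown, and 5.86 ± 0.52 in warm beige, against 3.26 ± 0.09 in cold beige libraries. The other large rises in brown libraries were of Runx2, a factor of bone formation, by 2.49 ± 0.53 (adjusted p = 0.00026) and of Chrd, the BMP antagonist chordin, by 2.30 ± 0.32 (adjusted p = 1.34e-06). Both genes stood low there, so the sizes are uncertain. Runx2 averaged -1.32 log2 CPM in warm and -3.81 in cold brown libraries, where its lowest value, -5.5, lay at the floor. Chrd averaged -0.81 and -3.11 log2 CPM in the same groups. In beige libraries the other large rises were of Thbs1, which activates latent TGF-beta, by 2.17 ± 0.47 (adjusted p = 0.000294) and of Pcsk5, a convertase that cleaves ligand precursors, by 2.05 ± 0.16 (adjusted p = 1.07e-10).

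The largest falls of that list in brown libraries were those of Pcsk6, another convertase, by 0.74 ± 0.10 (adjusted p = 1.46e-06), Kcp, a modulator with chordin-like repeats, by 0.74 ± 0.33 (adjusted p = 0.0491), and Map3k7, the TGF-beta activated kinase TAK1, by 0.72 ± 0.06 (adjusted p = 5.95e-10). Beige libraries showed falls of Kcp by 1.87 ± 0.40 (adjusted p = 0.000243), of the ubiquitin ligase gene Nedd4l by 1.59 ± 0.14 (adjusted p = 1.3e-09) and of Tsku, a secreted proteoglycan, by 1.36 ± 0.45 (adjusted p = 0.00953). Tsku was spread widely in warm beige libraries, at 1.60 to 4.31 log2 CPM, against 3.82 to 4.16 in cold beige ones, and the groups overlapped.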

How the data were processed

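Ribosome-bound mRNA was recovered with an antibody against GFP, depleted of ribosomal RNA and sequenced from tagmented cDNA, per the labels' protocols. The authors deposited log2 CPM values (read counts scaled to each library total) for 11603 rows in 22 libraries. The authors used HISAT2, Picard, featureCounts, edgeR and build mm10, all named in the submitters' processing notes; versions, strand setting and counting annotation are not given in the sources used here. Depth is unknown, so no counting error could be given, and the number of libraries limits the precision. The table's name and its values point to a batch adjustment before deposit: with the division into batches read from rows at the floor, no row had a batch coefficient above 0.005. The fit spends no degree of freedom on that step, so its p-values may be too small.

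limma 3.58.1 (R 4.3.3) was fitted to the deposited values of all rows with 1 mean per group, a trended variance prior and 17 residual degrees of freedom, and tested on simulated data. The plan had assumed linear CPM, so a log2(CPM + 1) version became an alternative. P-values were adjusted over all rows, with a threshold of 0.05. The genes, lists and tests were chosen with earlier results of these data known. Values are given per library for Bmp8b, for the 4 called genes with the largest change each way in each warming comparison and for the 3 in each other comparison. From the list of other pathway genes, the 3 called genes with the largest change each way in each warming comparison are named. Values of 1 gene are not reported here and not drawn, though it stays in the counts. Promoters came from RefSeq (GRCm38.p6). Chromatin samples were not analysed here. Alternatives were other scalings, a filter at 5 CPM, a batch term, fits within batches, replicate blocks, an untrended prior, the compared groups alone and single libraries left out.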

Additional observations from a re-analysis of the deposited data

Results flagged for a closer look

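In 10 of the 176 groups of 4 or 5 libraries examined, 1 library stood far from the others; chance alone does so in about 1 in 20 groups. Inhbb stood at 3.97 log2 CPM in warm brown 3, against 2.91 to 3.08 in the other warm brown libraries. Tgfb1 stood at 2.67 in warm brown 1, against 2.84 to 2.90. Gdf5 stood at 1.77 in cold brown 3, against 2.63 to 2.83, and Bmpr1a at 7.22 in cold brown 4, against 6.99 to 7.03. Bmp8b stood at 3.30 in cold beige 1, against 4.37 to 4.47, and Ltbp3 at 8.90 in cold beige 4, against 9.06 to 9.09. In warm white 3, Acvr1c stood at 10.07, against 9.51 to 9.55, and Tgfbr3 at 8.68, against 9.08 to 9.19. Bmp6 stood at -0.11 in warm white 2, against 1.05 to 1.29, and Smad2 at 6.72 in warm white 5, against 6.28 to 6.39.

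The effect of warming differed between beige and brown adipocytes, by limma's test of the difference itself, for 22 of the 44 genes. This share, 50%, lay near the 47.2% of all rows. Outside the fits within batches, 13 of the 22 calls were kept under every alternative. The beige effect lay above the brown one for Ltbp4 by 1.57, Inhbb by 1.46, Acvrl1 by 1.05, Id1 by 0.95, Smad7 by 0.93, Acvr1b by 0.75, Acvr1c by 0.70, Ltbp3 by 0.46 and Tgfbr1 by 0.41. The difference was negative for Gdf5 (-2.96), Id2 (-2.89), Bmp3 (-2.64), Tgfbi (-2.48), Fst (-1.60), Tgfb1 (-1.40), Tgfbr2 (-1.34), Ltbp2 (-1.14), Acvr2b (-0.92), Bmp2k (-0.88), Id3 (-0.84), Bmpr2 (-0.78) and Tgfbrap1 (-0.45).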

How the results depend on the processing

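Over the 44 genes and 6 comparisons, 6010 values were recomputed. Of these, 274 lost the call, 132 gained one and 6 changed sign while called in the main fit or the alternative. The other 5598 stayed on their side of the threshold, and a change of sign between uncalled values was not counted. Outside the fits within batches, 27 of 33 calls were kept under every alternative in brown warming, 25 of 31 in beige warming, 13 of 22 for the difference of effects, 17 of 22 against white, 20 of 30 in the cold and 28 of 33 in the warm. The cause was not tested, except that fits within batches use fewer libraries.

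Some values changed sign while called in the main fit or the alternative. Within batch 1 they were Gdf5 (-1.06) and Bmpr1a (-0.06) in beige warming, Tgfbr1 (-0.09) in the difference and Acvr1 (-0.01) in warm beige against warm brown. After quantile normalization they were Bambi (-1.30) and Smad7 (-0.24) in cold beige against cold brown. Within batch 1, brown warming called 21 of the 44 genes (1 lower), 18 pathway genes (12 higher, 6 lower) and 5050 rows. Beige warming called 19 (13 higher), 19 pathway genes (11 higher, 8 lower) and 5255 rows there. The difference called 9 (1 higher, 8 lower), 7 pathway genes (1 higher, 6 lower) and 1969 rows. Warm beige against warm white called 13 (6 higher), 11 pathway genes (7 lower) and 1304 rows. Cold beige against cold brown called 2 lower, 18 pathway genes (15 higher, 3 lower) and 3710 rows. Within batch 2, warm beige against warm white called 6 of the genes and 9 pathway genes lower, and cold beige against cold brown called 2 lower.

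With totals computed without the 20 most abundant genes, brown warming called 3 of the genes and 8 pathway genes lower, warm beige against warm white called 10 pathway genes higher and 9 lower, and cold beige against cold brown called 2 lower. The difference called 14 higher with 1 CPM added and 17 after quantile normalization, with 18 pathway genes higher in that setting. The compared groups alone gave 3016 rows for warm beige against warm white, and an untrended prior 3 genes lower in cold beige against cold brown. The median of all rows moved by over 0.1 in brown warming (-0.14 after quantile normalization, 0.13 without the 20 genes), beige warming (0.22 without the 20 genes), the difference (0.21 after quantile normalization, 0.14 with median-of-ratios scaling) and warm beige against warm brown (0.13 with median-of-ratios scaling, 0.15 without the 20 genes).

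Leaving out 1 library at a time called 31 to 35 genes in brown warming (26 to 30 higher, 5 to 7 lower), 27 to 31 in beige warming (22 to 25, 5 to 7), 18 to 25 for the difference (5 to 11, 12 to 14), 18 to 24 against white (9 to 12, 8 to 14), 26 to 30 in the cold (23 to 26, 2 to 4) and 32 to 34 in the warm (23 to 25, 9 to 10). With the replicate block, 33, 29, 22, 20, 31 and 33 genes were called in these comparisons. No share of all rows stands beside the counts of this paragraph, so they show only how far the counts moved. The replicate numbers were not shown to pair samples: the correlation of same-numbered libraries ran from -0.13 to 0.32 and was below 0.1 for some pair in every comparison. By the numbers in the library names it ran from -0.15 to 0.35, and was highest for cold beige with cold brown libraries (0.07 to 0.35). Whether animals were shared is not known from these values.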
